A study of Homo sapiens with 4 samples.

Results

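The comparison described here sets 2 human colorectal cancer cell lines against each other, HT29 cells and HCT116 cells, over 14523 of the 61544 genes in the count table, namely those that averaged 1 CPM (a count scaled to the depth of its library) or more. All 4 libraries of the series entered it, 2 for each line. They were HT29 control, HT29 treated with LPS, HCT116 control and HCT116 treated with LPS. LPS, lipopolysaccharide, is the outer membrane lipid of Gram-negative bacteria, and it was given at 1 ug/mL for 24 h as an in vitro model of inflamed intestinal epithelium. Both lines were grown in the same serum-containing Advanced DMEM/F-12 medium, no genetic change of either line is named in the labels, and the study used them as epithelial cells that differ in their baseline level of the glucocorticoid receptor. The treatment served here as a block, so that the line difference was estimated within controls and within LPS-treated cells together. The 2 libraries of a line are 2 treatments of 1 line and not repeat cultures, so p-values measure only the spread between these libraries, and anything that set the cultures of the lines apart cannot be told apart from the line itself.

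Cell lines from colorectal tumours keep parts of the colon's own gene expression and differ in how much of it they keep. A differentiated colon epithelium has absorptive cells with a brush border, goblet cells that secrete mucins and trefoil peptides, rare hormone cells, and a stem cell zone at the crypt base held by Wnt signals.

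Total gene counts ran from 19105058 to 21268959 per library, and the mitochondrial genome took 3.75% and 4.29% of them in HT29 cells against 5.01% and 7.16% in HCT116 cells, in the control and the LPS library, respectively. That order, control and then LPS, holds wherever a pair of counts is given, and in a phrase of counts against counts HT29 cells come first unless named otherwise. Defining epithelial genes were abundant in every library. KRT8, a keratin of simple epithelia, had 211351 and 219634 counts in HT29 cells and 53684 and 49872 in HCT116 cells, and EPCAM, an epithelial adhesion molecule, had 17033 and 16906 against 5292 and 4155. Of 16 immune cell markers only LYZ and CD14 passed the filter, PTPRC (CD45) had 0 to 2 counts in a library, and CD3E, CD2, FCGR3A and AIF1 had 0 in all 4. Of 11 fibroblast markers 2 passed the filter, COL1A1, with 81 and 59 counts in HT29 cells and 2225 and 1999 in HCT116 cells, and ACTA2, with 4 and 9 against 125 and 95, whereas COL1A2, DCN, PDGFRA, FAP, THY1 and POSTN were at 0 in all 4 libraries. Of 9 endothelial markers 3 passed, ESAM (1608 and 1795 against 142 and 117), PECAM1 (39 and 28 against 14 and 5) and VWF (5 and 4 against 39 and 35), and CDH5 was at 0 in all 4 libraries.

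The line difference was far larger than the LPS difference measured in the same libraries. By edgeR's quasi-likelihood test with a Benjamini-Hochberg adjusted p under 0.05, 5351 genes were higher in HT29 cells, which is 36.8% of the genes tested, and 5731 were higher in HCT116 cells, which is 39.5%. When a fold change over 2 was required as well, 2325 genes (16%) remained as over 2-fold higher in HT29 cells and 3460 (23.8%) as over 2-fold higher in HCT116 cells. LPS, tested in the same fit over both lines, gave 27 genes (0.186%), of which 16 were higher and 11 lower with LPS. Of these 27, 20 have a near-identical copy elsewhere in the genome, where reads cannot be assigned with certainty. Over all 14523 genes tested, 817 have such a copy. The median absolute log2 fold change was 0.76 between the lines and 0.10 for LPS, and the 90th percentile was 4.41 against 0.36. In 13160 genes, 90.6% of those tested, the fitted line difference was larger than the fitted LPS difference. The fit gives each gene a single LPS value for both lines. A response in only 1 line is therefore made smaller, and opposite responses cancel. The line sizes include fitted folds of genes with 0 counts in a line.

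The same difference was seen in each treatment. Across genes, which are not independent replicates, the log2 ratio of HT29 to HCT116 in the controls and that in the LPS libraries had a Pearson correlation of 0.97 (n = 14523 genes, no library in common). Both HT29 libraries lay above both HCT116 libraries in 6142 genes (42.3%), and both HCT116 libraries lay above in 6564 (45.2%). Of the 5785 genes called over 2-fold, 3 had opposite signs in the controls and in the LPS libraries, and these are DENND11, IFI27L2 and YTHDC1. Each of the 3 has a copy, and of all 5785 such genes 301 have one. Genes over 2-fold higher in HT29 cells held 22.6% and 22.5% of all counts in HT29 cells and 7.38% and 7.17% in HCT116 cells. Those over 2-fold higher in HCT116 cells held 16.3% and 16.1% of the counts in HCT116 cells and 3.68% and 3.78% in HT29 cells. HCT116 cells thus had more such genes, and HT29 cells had more of their RNA in theirs. Beyond 8-fold, 1504 genes were higher in HCT116 cells and 635 in HT29 cells.

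**Figure D1:**
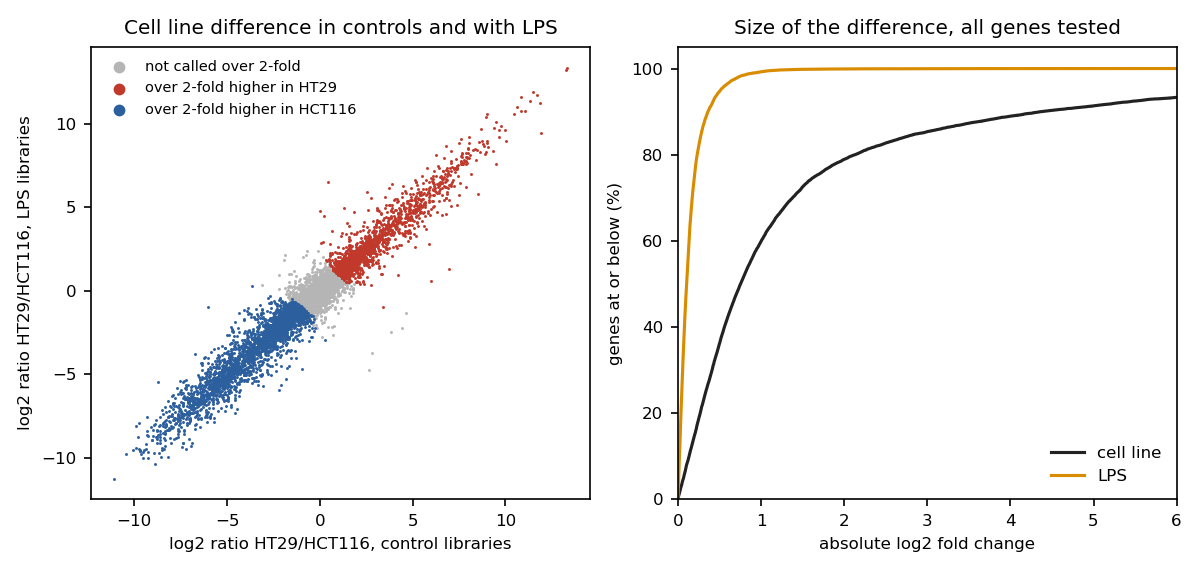
Left, each point is a gene, with the log2 ratio of HT29 to HCT116 in the control libraries on the x axis and in the LPS libraries on the y axis, in red where the gene was called over 2-fold higher in HT29 cells, in blue where it was called over 2-fold higher in HCT116 cells and in grey otherwise. Right, the share of genes in percent at or below a given absolute log2 fold change for the cell line (black) and for LPS (orange); the medians are 0.76 and 0.10, and the x axis ends at 6.

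Part of the difference was close to an on and off pattern. Of the genes tested, 119 had 0 counts in both HCT116 libraries and 315 had 0 counts in both HT29 libraries. These genes passed the filter through the line that expresses them, so that they had to differ, and their folds are given as lower bounds against a floor of 3 counts over the summed depth of the silent line. Among the 15 largest differences on each side, taken from genes averaging 5 CPM or more, 12 of the HT29 genes and all 15 of the HCT116 genes were of this kind.

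LYZ (chr12:69348381-69354234, hg38), which encodes the antibacterial enzyme lysozyme, led the HT29 side. It had 18532 and 20709 counts in HT29 cells and 0 in both HCT116 libraries, at least 14717-fold higher. ALDH1A1, an enzyme that makes retinoic acid, had 17957 and 18456 counts in HT29 cells and 0 in both HCT116 libraries, at least 13656-fold higher. TM4SF4, a membrane protein with 4 spans, had 6093 and 6693 counts, and AGR2, a disulphide isomerase needed for the folding of mucins, had 4568 and 5120, again against 0 in HCT116 cells. FFAR4, a receptor for long-chain fatty acids (3319 and 3363), HCAR1, the lactate receptor (1471 and 1570), NMUR2, a receptor for neuromedin U (779 and 1001), KCNE3, a subunit of epithelial potassium channels (918 and 986), and SLC28A3, a nucleoside transporter (794 and 870), were likewise at 0 in HCT116 cells. The receptors and transporters of this group therefore had no read in HCT116 cells at this depth.

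On the HCT116 side the extracellular matrix led. COL6A2 (chr21:46098112-46132848, hg38), a chain of collagen VI, had 4879 and 4847 counts in HCT116 cells and 0 in both HT29 libraries, at least 2882-fold higher. ANTXR1, a collagen-binding membrane receptor, had 1737 and 1725 counts and was at least 1026-fold higher. ZNF518B, a zinc finger protein, had 1809 and 1559 counts. HLTF, a DNA translocase that acts at stalled replication forks, had 1152 and 963 counts in HCT116 cells and 0 in HT29 cells. SMO, the signal-transducing receptor of the Hedgehog pathway, had 954 and 950 counts, and the potassium channel subunit KCNG1, with 994 and 852 counts, was also without a read in HT29 cells.

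**Figure D2:**
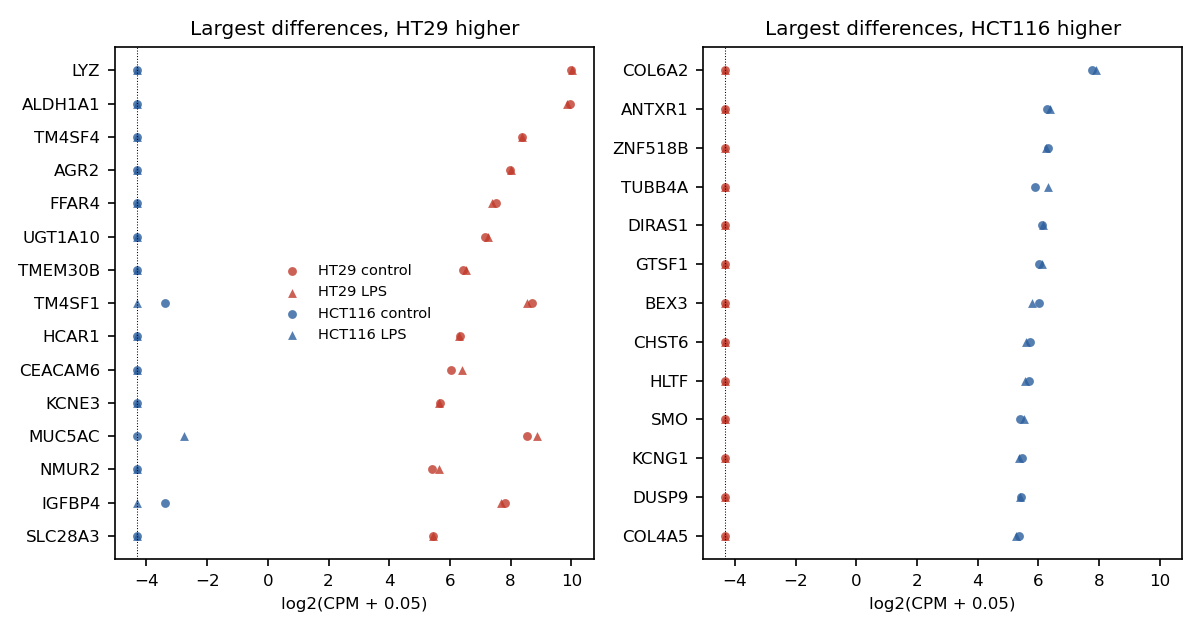
Level of genes with the largest fitted difference in each direction, as log2(CPM + 0.05) on the x axis, with HT29 libraries in red, HCT116 libraries in blue, circles for control and triangles for LPS, and a dotted line at 0 counts. Control and LPS of a line lie together, and the other line lies at or next to the dotted line, with MUC5AC, TM4SF1 and IGFBP4 at 1 or 2 counts in HCT116 cells.

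The promoters of these genes differed in how many CpG dinucleotides they hold, which is shown here since CpG-rich promoters are typical of widely used genes and CpG-poor ones of tissue-restricted genes. RefSeq promoter windows on GRCh38.p14, reaching from 250 bases before to 50 bases after the start of the gene, were matched by symbol for 10079 of 12447 protein-coding gene names tested. The sequences below are those of the 3 most abundant genes of each silent set that have an entry, 5′ to 3′ on the strand of the gene, with every CpG in capitals. The first 3 genes had reads in HT29 cells and none in HCT116 cells, and the last 3 had reads in HCT116 cells and none in HT29 cells.
ALDH1A1, chr9:72953004-72953303, minus strand: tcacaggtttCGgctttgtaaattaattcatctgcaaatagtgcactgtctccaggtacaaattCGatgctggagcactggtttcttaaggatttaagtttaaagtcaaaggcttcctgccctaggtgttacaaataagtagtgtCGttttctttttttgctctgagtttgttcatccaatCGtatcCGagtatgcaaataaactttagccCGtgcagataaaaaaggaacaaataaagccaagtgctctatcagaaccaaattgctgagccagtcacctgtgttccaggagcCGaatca
TM4SF4, chr3:149474447-149474746, plus strand: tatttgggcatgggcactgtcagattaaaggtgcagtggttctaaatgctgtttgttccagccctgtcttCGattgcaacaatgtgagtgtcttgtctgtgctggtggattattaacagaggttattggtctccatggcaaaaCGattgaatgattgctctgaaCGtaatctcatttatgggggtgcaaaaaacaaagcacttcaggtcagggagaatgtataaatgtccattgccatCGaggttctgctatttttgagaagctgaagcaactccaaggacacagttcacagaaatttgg
AGR2, chr7:16804950-16805249, minus strand: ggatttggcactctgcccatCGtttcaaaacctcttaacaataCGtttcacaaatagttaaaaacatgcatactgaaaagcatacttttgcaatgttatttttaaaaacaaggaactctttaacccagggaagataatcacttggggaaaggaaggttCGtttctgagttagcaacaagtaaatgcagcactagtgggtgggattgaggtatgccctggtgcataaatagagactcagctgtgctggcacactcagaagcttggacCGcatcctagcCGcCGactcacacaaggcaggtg
COL6A2, chr21:46097862-46098161, plus strand: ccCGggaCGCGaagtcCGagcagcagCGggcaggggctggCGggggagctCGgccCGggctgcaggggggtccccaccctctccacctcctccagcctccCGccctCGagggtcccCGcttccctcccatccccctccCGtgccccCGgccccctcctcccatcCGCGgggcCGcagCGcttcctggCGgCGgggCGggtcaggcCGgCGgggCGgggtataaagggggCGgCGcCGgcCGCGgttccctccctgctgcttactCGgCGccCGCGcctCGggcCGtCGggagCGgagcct
ANTXR1, chr2:69012894-69013193, plus strand: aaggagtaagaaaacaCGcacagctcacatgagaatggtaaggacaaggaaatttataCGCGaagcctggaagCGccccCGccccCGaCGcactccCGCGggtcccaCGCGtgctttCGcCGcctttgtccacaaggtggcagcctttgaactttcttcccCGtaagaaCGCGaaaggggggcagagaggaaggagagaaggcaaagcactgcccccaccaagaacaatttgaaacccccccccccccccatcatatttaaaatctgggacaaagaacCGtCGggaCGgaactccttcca
ZNF518B, chr4:10457377-10457676, minus strand: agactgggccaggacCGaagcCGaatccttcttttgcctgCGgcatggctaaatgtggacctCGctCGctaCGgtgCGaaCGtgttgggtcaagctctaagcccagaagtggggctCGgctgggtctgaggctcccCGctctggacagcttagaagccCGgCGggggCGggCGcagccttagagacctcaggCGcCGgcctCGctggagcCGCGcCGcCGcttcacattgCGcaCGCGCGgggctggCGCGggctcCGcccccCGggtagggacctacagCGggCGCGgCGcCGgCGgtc

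In the windows printed above, the capitals are sparse for the HT29 genes and dense for the HCT116 genes. The ratio of observed to expected CpG, which corrects for base composition, was 0.574 for ALDH1A1, 0.304 for TM4SF4 and 0.420 for AGR2, against 0.767 for COL6A2, 0.819 for ANTXR1 and 0.946 for ZNF518B. Exceptions were found on both sides, with 0.689 for FFAR4 and 0.631 for KCNE3 among the HT29 genes and 0.224 for TUBB4A, 0.349 for GTSF1 and 0.307 for BEX3 among the HCT116 genes. The median ratio was 0.394 over 70 matched genes with 0 counts in HCT116 cells and 0.725 over 178 matched genes with 0 counts in HT29 cells, beside 0.841 over all matched genes. Of the genes called over 8-fold higher in HT29 cells, 42.4% (of 387) had a ratio of at least 0.6. The share was 70.7% (of 963) for genes over 8-fold higher in HCT116 cells and 83.1% for all matched genes. Both sets held fewer CpG-rich promoters than all genes, and the HT29 set held the fewest. DNA methylation was not measured in these libraries.

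**Figure D3:**
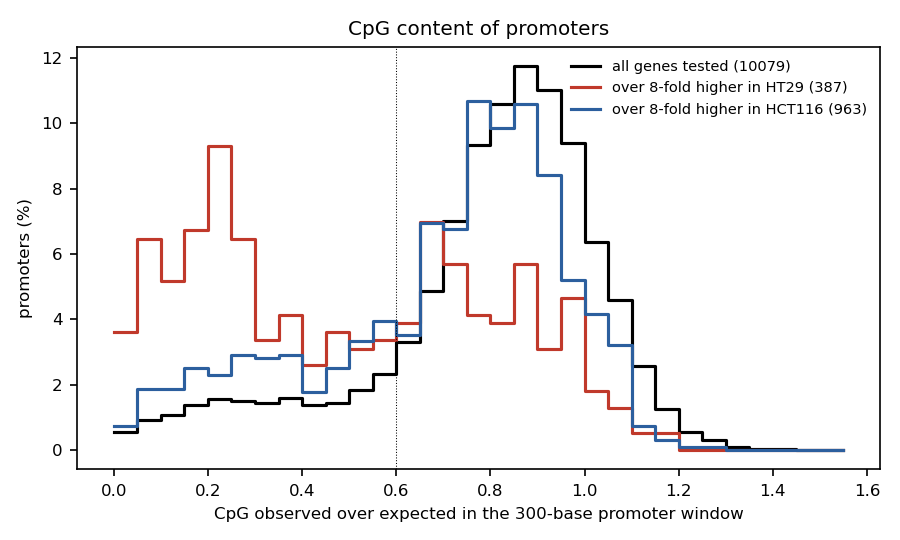
Distribution of the observed over expected CpG ratio (x axis) in 300-base promoter windows, as percent of promoters (y axis), for all matched genes tested (black), for genes over 8-fold higher in HT29 cells (red) and for genes over 8-fold higher in HCT116 cells (blue), with the number of promoters in brackets and a dotted line at 0.6. The red curve has a peak at low ratios, and 42.4% of it lies at or above 0.6, against 70.7% of the blue and 83.1% of the black curve.

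Short letter strings typical of binding sites were counted on both strands of the same windows, as a description only. TGAGTCA, the AP-1 site, stood in 7.49% of the promoters of genes over 8-fold higher in HT29 cells, in 3.22% of those over 8-fold higher in HCT116 cells and in 2.99% of all matched promoters. In the same order, TATAAA was found in 12.7%, 5.82% and 5.34%. TTTATGG, a string of CDX sites that shares letters with TATAAA, stood in 3.88%, 1.45% and 1.36% (15, 14 and 137 promoters). CAAAGTCCA, an HNF4 site, stood in 1.03%, 0.208% and 0.228%, which is only 4, 2 and 23 promoters. CACGTG, the E-box, went the other way, with 6.20%, 7.06% and 10.1%, and TTTACGA, a string of HOX and CDX sites, was rare throughout, with 0%, 0.312% and 0.516%. These strings differ in base composition as the windows do, and their part in expression was not tested.

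For some of the gene lists, counts are also given among members that reached 1 CPM in both lines. Over all such genes tested, 13.7% were over 2-fold higher in HT29 cells and 15.8% in HCT116 cells. Colon epithelial genes were for the most part higher in HT29 cells. Of 18 such genes 16 passed the filter, and 13 of these were over 2-fold higher in HT29 cells and 1 in HCT116 cells, with a median log2 fold change (HT29 over HCT116) of 2.62, beside −0.05 over all genes tested. Of the 10 that reached 1 CPM in both lines, 7 were over 2-fold higher in HT29 cells. VIL1 (villin, an actin bundler of microvilli) had 2637 and 3004 counts in HT29 cells and 4 and 0 in HCT116 cells. LGALS4, an intestinal galectin, had 7005 and 8299 counts against 0 and 10, and TSPAN8, a tetraspanin, had 6187 and 6136 against 2 and 0. In each of them every HT29 library was far above every HCT116 library. CDH1, the epithelial cadherin, was expressed in both lines, with 7245 and 9307 counts in HT29 cells and 1676 and 1678 in HCT116 cells, a log2 fold change of 2.46 (SE 0.07, edgeR adjusted p = 8.87e-16).

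The colon identity factor CDX2 went against its own list. It had 18 and 39 counts in HT29 cells and 474 and 572 in HCT116 cells, a log2 fold change of −4.07 (SE 0.22, edgeR adjusted p = 9.74e-12). Both HCT116 libraries were above both HT29 libraries. KRT19 was slightly higher in HCT116 cells, at −0.30, and KRT20 had 0 counts in all 4 libraries.

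Most transcription factors of intestinal lineages, unlike CDX2, were higher in HT29 cells. Of 30 tested (36 listed), 18 were over 2-fold higher in HT29 cells and 5 in HCT116 cells, with a median of 2.50. SPDEF, a goblet cell factor, had 1793 and 1913 counts in HT29 cells and 2 and 3 in HCT116 cells. FOXA2, which controls endoderm genes, had 469 and 561 counts against 6 and 2. PROX1 had 69 and 89 counts in HT29 cells and 0 in HCT116 cells. In the other direction, ZIC2, a zinc finger factor of the developing nervous system, had 5 and 9 counts in HT29 cells and 1109 and 1107 in HCT116 cells.

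Goblet cell and mucin genes were mostly higher in HT29 cells. Of 20 tested (33 listed), 15 were over 2-fold higher in HT29 cells and 1 in HCT116 cells. The median log2 fold change was 5.30, or 4.67 with genes that are at 0 in a line set to their lower bound. Of the 9 that reached 1 CPM in both lines, 4 were over 2-fold higher in HT29 cells and 1 in HCT116 cells, with a median of 0.99. MUC5AC, a gel-forming mucin of the stomach type, had 6728 and 9370 counts in HT29 cells and 0 and 2 in HCT116 cells, a ratio of 9056 with a 95% counting interval from 2507 to 74784. GCNT3, which builds branched mucin sugars, had 12777 and 13126 counts against 17 and 21. TFF3, the intestinal trefoil peptide, was much lower in level, with 82 and 107 counts in HT29 cells and 0 in HCT116 cells, and BCAS1 had 1141 and 1283 against 0 and 2.

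Absorptive and hormone cell genes were split between the lines. Of 41 absorptive and brush border genes 11 were tested, with 5 over 2-fold higher in HT29 cells and 4 in HCT116 cells. DPP4, a brush border peptidase (780 and 1018 against 59 and 44), and SLC5A1, the sodium-coupled glucose transporter (248 and 282 against 8 and 2), were higher in HT29 cells. ESPN, which like villin bundles actin, was higher in HCT116 cells, with 4195 and 3981 counts against 24 and 21. SLC15A1, the peptide transporter, had 85 and 52 counts in HCT116 cells and 0 in HT29 cells. The 2 actin bundlers villin and espin thus stood on opposite sides. Of 28 enteroendocrine genes 7 were tested, with 2 over 2-fold higher in HT29 cells, ISL1 (315 and 362 against 35 and 18) and SYT13 (590 and 637 against 113 and 101), and 5 in HCT116 cells. Only 3 of the 7 reached 1 CPM in both lines. There 2 were over 2-fold higher in HT29 cells and 1 in HCT116 cells, with a median log2 fold change of 2.69. CPE, a carboxypeptidase that processes prohormones, had 2 and 1 counts in HT29 cells and 1582 and 1376 in HCT116 cells.

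Junction genes were mostly higher in HT29 cells. Of 42 tested (43 listed), 22 were over 2-fold higher in HT29 cells and 3 in HCT116 cells, with a median of 1.08, and 40 of the 42 reached 1 CPM in both lines. CLDN1, a sealing claudin, had 976 and 938 counts in HT29 cells and 1 and 0 in HCT116 cells, whereas CLDN2, a pore-forming claudin, had 2688 and 3008 against 84 and 67. CDH3, placental cadherin, was an exception, with 81 and 88 counts in HT29 cells and 3973 and 3791 in HCT116 cells, so that the 2 cadherins CDH1 and CDH3 ran in opposite directions. Among the keratins tested, 6 of 10 (19 listed) were over 2-fold higher in HT29 cells and 2 in HCT116 cells. KRT13 had 1652 and 1503 counts against 59 and 83, and KRT18, the partner of KRT8, had 81443 and 79344 against 13675 and 12845.

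Families of cell surface and calcium-binding proteins were also mostly higher in HT29 cells. Of 12 CEACAM genes 4 were tested, and 3 of them were over 2-fold higher in HT29 cells. Their median log2 fold change was 8.58, or 6.83 with genes that are at 0 in a line set to their lower bound. Over the 2 that reached 1 CPM in both lines it was 2.40. CEACAM6, an adhesion glycoprotein, had 1181 and 1691 counts in HT29 cells and 0 in HCT116 cells, CEACAM5 (the carcinoembryonic antigen) had 428 and 490 against 0, and CEACAM1 had 1072 and 1296 against 21 and 50. S100 proteins and annexins, both calcium-binding, had 9 of 23 tested members (31 listed) over 2-fold higher in HT29 cells and 1 in HCT116 cells. S100P had 2647 and 2338 counts in HT29 cells and 1 in each HCT116 library, and ANXA6, the exception, had 27 and 57 in HT29 cells and 2478 and 2245 in HCT116 cells. Of 24 tested glycosyltransferases of blood group and mucin sugars (31 listed), 12 were over 2-fold higher in HT29 cells and 7 in HCT116 cells, led by the sialyltransferase ST3GAL1 with 13980 and 17493 counts against 591 and 527.

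Detoxification genes held some of the largest differences on the HT29 side and were present on both. Of 45 tested (59 listed), 21 were over 2-fold higher in HT29 cells and 13 in HCT116 cells, but among the 30 that reached 1 CPM in both lines these counts were 9 and 10. GPX2, the gastrointestinal glutathione peroxidase, had 12327 and 13688 counts in HT29 cells and 5 and 6 in HCT116 cells. UGT1A10, UGT1A1, UGT1A8 and UGT1A6, which attach glucuronic acid to drugs and bilirubin, had 268 to 3045 counts per library in HT29 cells and 0 in HCT116 cells. These UGT1A genes share their last exons, so their counts are not independent of each other. Drug efflux transporters of the ABC family differed by member, with 6 of 12 tested over 2-fold higher in HT29 cells and 5 in HCT116 cells. ABCG2 had 1944 and 2092 counts in HT29 cells and 44 and 30 in HCT116 cells, whereas ABCC2 had 141 and 140 against 6250 and 6137 and ABCB1, P-glycoprotein, had 2 and 0 against 98 and 60.

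Some genes of plasma proteins, normally made by the liver, were also present in HT29 cells. Of 42 listed 14 were tested, with 8 over 2-fold higher in HT29 cells and 3 in HCT116 cells, and a median log2 fold change of 2.54. Among the 7 that reached 1 CPM in both lines these counts were 3 and 1, with a median of 0.23. RBP4, the plasma carrier of retinol, had 128 and 161 counts in HT29 cells and 0 in HCT116 cells, APOH had 482 and 549 against 0, and F5, coagulation factor V, had 1475 and 1918 against 8 and 35. F10, coagulation factor X, went the other way, with 1 and 3 counts in HT29 cells and 120 and 115 in HCT116 cells.

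Most of the mesenchymal genes, neuronal genes and collagen chains tested were higher in HCT116 cells. Of 35 mesenchymal genes tested (42 listed), 19 were over 2-fold higher in HCT116 cells and 7 in HT29 cells, with a median of −1.81. Of the 25 that reached 1 CPM in both lines, 12 were over 2-fold higher in HCT116 cells and 5 in HT29 cells. QKI, an RNA-binding splicing regulator, had 1 and 0 counts in HT29 cells and 660 and 531 in HCT116 cells. MYL9, a myosin light chain, had 4 and 3 counts against 1058 and 1053, and the transcription factor TWIST1 had 0 against 72 and 93. VIM, the intermediate filament protein vimentin, chosen for mention after its values were seen, had 0 and 3 counts in HT29 cells and 331 and 270 in HCT116 cells. The matrix protein tenascin, TNC, was higher in HT29 cells, with 968 and 1274 counts against 4 and 4, and so was TGFBI, with 1454 and 1856 against 7 and 8. The list thus did not run in a single direction.

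**Figure D4:**
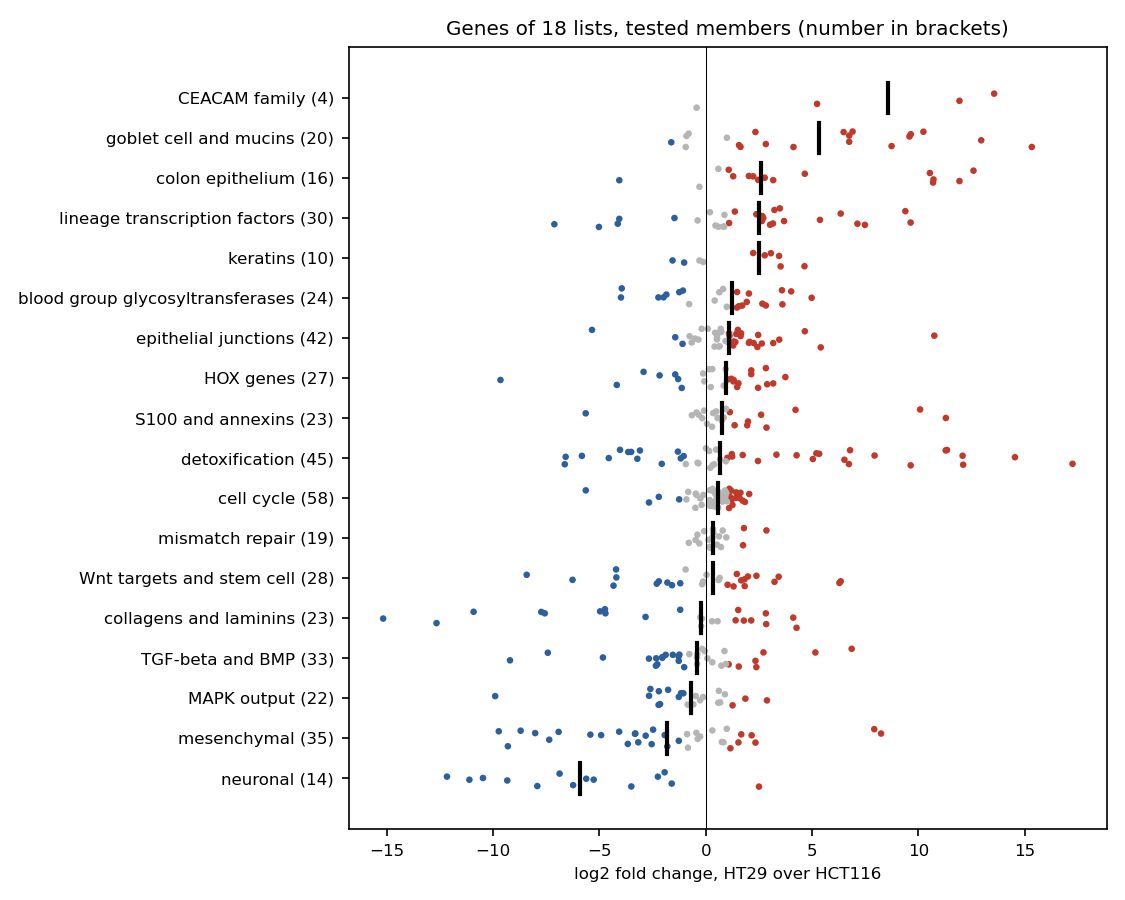
Log2 fold change of HT29 over HCT116 (x axis) for the tested members of 18 gene lists, with the number of members in brackets and a black bar at the median. Points are red where the gene was over 2-fold higher in HT29 cells, blue where it was over 2-fold higher in HCT116 cells and grey otherwise. The medians run from −5.93 for neuronal genes to 8.58 for the CEACAM family, of which 4 genes were tested, and most lists hold genes of both directions. With genes at 0 in a line set to their lower bound, these medians are −5.68 and 6.83.

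Collagens and laminins, the matrix of basement membranes and stroma, had members on both sides. Of 23 tested (32 listed), 10 were over 2-fold higher in HCT116 cells and 8 in HT29 cells. Collagen chains were also counted by name, as a set that is not a part of that list. Of the 18 tested genes named COL followed by a number, 13 were over 2-fold higher in HCT116 cells and 3 in HT29 cells, with a median of −4.73. COL6A1, the partner chain of COL6A2, had 37 and 42 counts in HT29 cells and 9570 and 9391 in HCT116 cells. COL12A1 had 1 and 3 counts against 4740 and 4462, and COL4A5 and its neighbour COL4A6, chains of collagen IV, had 0 to 1 counts against 931 and 790 and 140 and 124. COL4A2, also a chain of collagen IV, was higher in HT29 cells, with a log2 fold change of 4.11. AGRN, a basement membrane proteoglycan, was among the most abundant genes on the HT29 side, with 56345 and 66528 counts against 9860 and 9390. Of 16 integrins tested (20 listed), which bind these proteins, 8 were over 2-fold higher in HT29 cells and 4 in HCT116 cells, and among the 11 that reached 1 CPM in both lines these counts were 6 and 1. ITGB6 (632 and 688 against 11 and 8) and ITGA1 (626 and 792 against 46 and 17) were higher in HT29 cells, and ITGA5, the fibronectin receptor subunit, had 0 and 6 counts in HT29 cells and 2107 and 2180 in HCT116 cells.

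Neuronal genes were higher in HCT116 cells in 13 of 14 tested members (40 listed), all over 2-fold, with a median log2 fold change of −5.93, or −5.68 with genes at 0 set to their bound. Of the 7 that reached 1 CPM in both lines, 6 were over 2-fold higher in HCT116 cells and 1 in HT29 cells, at 2.50. The summed level of the listed genes did not follow the number of genes. In TPM, counts scaled to gene length and library depth, it was 635 and 595 in HT29 cells against 566 and 530 in HCT116 cells. SYT1, a calcium sensor of synaptic vesicles, had 2 and 0 counts in HT29 cells and 1920 and 1676 in HCT116 cells. L1CAM, a neural adhesion molecule, had 6 and 1 counts against 1030 and 947, PCDH7, a protocadherin, had 27 and 11 against 2601 and 2454, and DPYSL5, which acts in axon growth, had 0 against 702 and 530. Most of the 40 listed genes did not pass the filter in either line.

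Of 17 genes commonly altered in colorectal tumours, all tested, 4 were over 2-fold higher in HT29 cells and 1 in HCT116 cells, beside 39.8% of all genes tested that were over 2-fold higher in either line. SMAD4, the common mediator of TGF-beta signals, had 182 and 269 counts in HT29 cells and 1360 and 1173 in HCT116 cells, a log2 fold change of −2.33 (SE 0.13, edgeR adjusted p = 1.39e-11). MSH3, a mismatch repair protein, had 537 and 522 counts in HT29 cells and 92 and 74 in HCT116 cells, a log2 fold change of 2.85. TGFBR2 (1.55) and CDKN2A (1.42) were also over 2-fold higher in HT29 cells. AMER1 (0.47), SOX9 (−0.39) and CTNNB1 (−0.95) passed the test below 2-fold, and APC, BRAF, PIK3CA, FBXW7, ARID1A, ACVR2A and BAX did not pass it. Of the 19 mismatch repair genes, 3 were over 2-fold higher in HT29 cells, a share near the 16% of all genes tested, and none in HCT116 cells. RFC3, a clamp loader subunit, was among the 3, with 1786 and 1874 counts against 663 and 564.

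MAPK output genes, and genes of TGF-beta and BMP signalling, were more often higher in HCT116 cells, with exceptions. Of 22 MAPK output genes tested (23 listed), 10 were over 2-fold higher in HCT116 cells and 3 in HT29 cells, with a median of −0.72. Their summed level did not follow these numbers, at 5060 and 5181 TPM in HT29 cells against 4740 and 4723 in HCT116 cells. DUSP4 and DUSP5, feedback phosphatases of ERK, had 884 and 907 counts against 4979 and 4435, and 251 and 268 against 1941 and 1773. CCND1, cyclin D1, had 2877 and 3310 counts in HT29 cells and 16823 and 15342 in HCT116 cells. SPRY1, another feedback inhibitor, was higher in HT29 cells, with 336 and 479 counts against 65 and 58. Of 33 TGF-beta and BMP genes tested (41 listed), 15 were over 2-fold higher in HCT116 cells and 7 in HT29 cells. ID3, a target of BMP signals, had 5 and 11 counts in HT29 cells and 1593 and 1539 in HCT116 cells, whereas PMEPA1, a target of TGF-beta, had 3163 and 3474 against 130 and 81. The ligands BMP2 and BMP7 lay on opposite sides, with BMP2 at 103 and 132 counts against 1 and 1, and BMP7 at 0 and 1 against 405 and 411. By log2 fold change, BMP6 (−6.57), BMP8A (−2.83) and BMP8B (−2.14) were also over 2-fold higher in HCT116 cells. BMP4 (0.73) was not over 2-fold.

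Wnt and stem cell genes were divided between the lines. Of 28 tested (35 listed), 12 were over 2-fold higher in HT29 cells and 10 in HCT116 cells. The crypt base genes LGR5, a receptor for R-spondins (187 and 174 against 3 and 2), and ASCL2, a transcription factor of crypt stem cells (279 and 243 against 3 and 4), were higher in HT29 cells. The feedback inhibitors NKD1 (16 and 30 against 466 and 484) and NKD2 (2 and 5 against 93 and 72) and the factor TCF7L1 (8 and 7 against 611 and 702) were higher in HCT116 cells. NKD2 has a near-identical copy, which leaves its counts uncertain.

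Among growth factor genes of the EGFR family, 3 of 12 tested (16 listed) were over 2-fold higher in HT29 cells and 4 in HCT116 cells. The receptor ERBB3 had 2899 and 3439 counts in HT29 cells and 899 and 896 in HCT116 cells. The ligand EREG and the feedback inhibitor ERRFI1 were higher in HCT116 cells, with 10895 and 9255 counts against 2649 and 3167, and 12724 and 12185 against 2110 and 2298. Cell cycle genes were expressed in both lines, since all 58 tested (59 listed) reached 1 CPM in each, and 13 of them were over 2-fold higher in HT29 cells and 4 in HCT116 cells, with a median of 0.56. MYBL2, a proliferation factor, had 7426 and 8209 counts in HT29 cells and 2704 and 2224 in HCT116 cells. CDKN1A (chr6:36676460-36687337, hg38), the p21 inhibitor of cyclin-dependent kinases, had 232 and 327 counts in HT29 cells and 15787 and 15416 in HCT116 cells, a log2 fold change of −5.64 (SE 0.09, edgeR adjusted p = 8.3e-19). Both HCT116 libraries lay far above both HT29 libraries. CDKN1C, another such inhibitor, was also over 2-fold higher in HCT116 cells, and it has a copy.

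HOX genes, which record position along the body axis, differed in most members. Of 27 tested (39 listed), 13 were over 2-fold higher in HT29 cells and 7 in HCT116 cells. HOXA13 (1433 and 1513 against 213 and 158) and HOXB9 (4428 and 4826 against 743 and 668) were higher in HT29 cells. HOXC9 (34 and 30 against 292 and 258) and HOXC10 (4 and 4 against 84 and 84) were higher in HCT116 cells, and HOXD8 had 116 and 98 counts there and 0 in HT29 cells. Imprinted genes were higher in HCT116 cells in 8 of 17 tested members (28 listed) and in HT29 cells in 4, by the 2-fold rule, with a median of −0.47. Among the 11 that reached 1 CPM in both lines the order turned, with 4 over 2-fold higher in HT29 cells, 2 in HCT116 cells and a median of 0.58. PEG10 had 2 and 7 counts in HT29 cells and 1138 and 983 in HCT116 cells, its neighbour SGCE had 1 and 1 against 212 and 300, and ZDBF2 had 0 against 348 and 348. Of 44 cancer-testis antigens 9 were tested, with 2 over 2-fold higher in HT29 cells, 5 in HCT116 cells and a median of −2.97. Only 3 of them reached 1 CPM in both lines. There 0 were over 2-fold higher in HT29 cells and 1 in HCT116 cells, with a median of −0.0015. Among the tested antigens were MAGEB2 at 2 and 3 counts against 4019 and 3522, and MAGEA12 at 51 and 74 against 2 and 1.

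The receptor for LPS and the glucocorticoid receptor each had next to no reads in a line. TLR4 (chr9:117704175-117724735, hg38), the receptor that recognises LPS, had 313 and 362 counts in HT29 cells and 0 in both HCT116 libraries, at least 253-fold higher. NR3C1 (chr5:143277931-143435512, hg38), the glucocorticoid receptor, had 1 and 0 counts in HT29 cells and 615 and 560 in HCT116 cells, a ratio of 1044 with a 95% counting interval from 187 to 41284. The lines therefore lay at opposite ends for these 2 genes. TET2, a DNA demethylase, had 329 and 449 counts in HT29 cells and 485 and 534 in HCT116 cells, a log2 fold change of −0.23 (edgeR adjusted p = 0.114), and TNF and IL6 had 0 to 2 counts in every library. TET2 did pass the test when library size alone was used for scaling (−0.36) and when the HT29 LPS library was left out (−0.40). TET1, a related enzyme, had 1 and 1 counts in HT29 cells and 104 and 78 in HCT116 cells, and DNMT3B, a DNA methyltransferase, had 97 and 163 against 872 and 905. SGK1, a kinase that glucocorticoids induce, was higher in HT29 cells, with 1372 and 1468 counts against 116 and 100.

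Other innate immune genes fell on both sides. Of 25 sensors and adaptors tested (40 listed), 7 were over 2-fold higher in HT29 cells and 10 in HCT116 cells. CGAS, the sensor of cytosolic DNA, had 660 and 712 counts in HT29 cells and 1 and 0 in HCT116 cells, and NLRP3, an inflammasome sensor, had 65 and 81 against 1 and 0. NOD2, a sensor of bacterial peptidoglycan, had 0 counts in HT29 cells and 215 and 203 in HCT116 cells, NLRP1, another inflammasome sensor, had 0 against 254 and 236, and GSDME, a pore-forming gasdermin, had 1 and 3 against 450 and 429. All 5 were at or near 0 in a line and well above it in the other. Interferon-stimulated genes were mixed, with 8 of 33 tested (46 listed) over 2-fold higher in HT29 cells and 6 in HCT116 cells. OAS1 (299 and 380 against 15 and 6) and BST2 (1148 and 1452 against 28 and 58) were higher in HT29 cells, and IFITM3 had 62 and 115 counts in HT29 cells and 4007 and 4380 in HCT116 cells. In antigen presentation, 6 of 14 tested genes (31 listed) were over 2-fold higher in HT29 cells and 1 in HCT116 cells. ERAP2, a peptide trimming enzyme, had 1605 and 2071 counts against 99 and 66, and NLRC5, an activator of MHC class I genes, had 11 and 19 against 348 and 361.

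Housekeeping genes were not all level between the lines. Of 75 ribosomal protein genes tested (77 listed), 3 were over 2-fold higher in HT29 cells and 2 in HCT116 cells, with a median of 0.17. The 15 genes of the mitochondrial genome had a median of −0.61, none of them over 2-fold, and 13 passed the test as higher in HCT116 cells. MT-RNR2 had 39821 and 43823 counts in HT29 cells and 88115 and 93980 in HCT116 cells. Of 16 common reference genes, 5 were over 2-fold higher in HT29 cells and 1 in HCT116 cells, and these included TFRC (1.35), SDHA (1.24), GUSB (1.20), PGK1 (1.06), IPO8 (1.01) and POLR2A (−1.58). GAPDH, at 0.03 (edgeR adjusted p = 0.716), did not pass the test and was chosen for mention after its values were seen. Several genes used to normalise other assays thus differed between these lines by over 2-fold, as did 39.8% of all genes tested. The share among reference genes was near that of all genes. Among the most abundant genes higher in HCT116 cells were FASN, fatty acid synthase (31344 and 37154 against 90875 and 76983), HSP90AA1, a chaperone (26692 and 26758 against 69687 and 55240), and AKAP12, a scaffold of protein kinase A (394 and 405 against 58142 and 49675).

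Whole chromosome arms moved as well. The median log2 fold change was lowest for 8p, at −1.41 over 168 genes, where 147 genes (87.5%) passed the test as higher in HCT116 cells and 8 as higher in HT29 cells. The medians of 19p (−0.77 over 467 genes), 17p (−0.72 over 254) and 22q (−0.60 over 371) followed. At the other end stood 18p (0.60 over 55 genes), 20q (0.60 over 273), 5p (0.56 over 117) and 13q (0.50 over 246). On 20q, 177 genes (64.8%) passed the test as higher in HT29 cells and 64 as higher in HCT116 cells. The medians in the controls and in the LPS libraries were close, at −1.40 and −1.49 for 8p and at 0.62 and 0.56 for 20q. On 19p, 42 ZNF genes (zinc finger genes) had a median of −0.66 and 381 other protein-coding genes a median of −0.76. The genes of an arm share their position, and the number of DNA copies was not measured here, so its part in these medians was not tested.

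**Figure D5:**
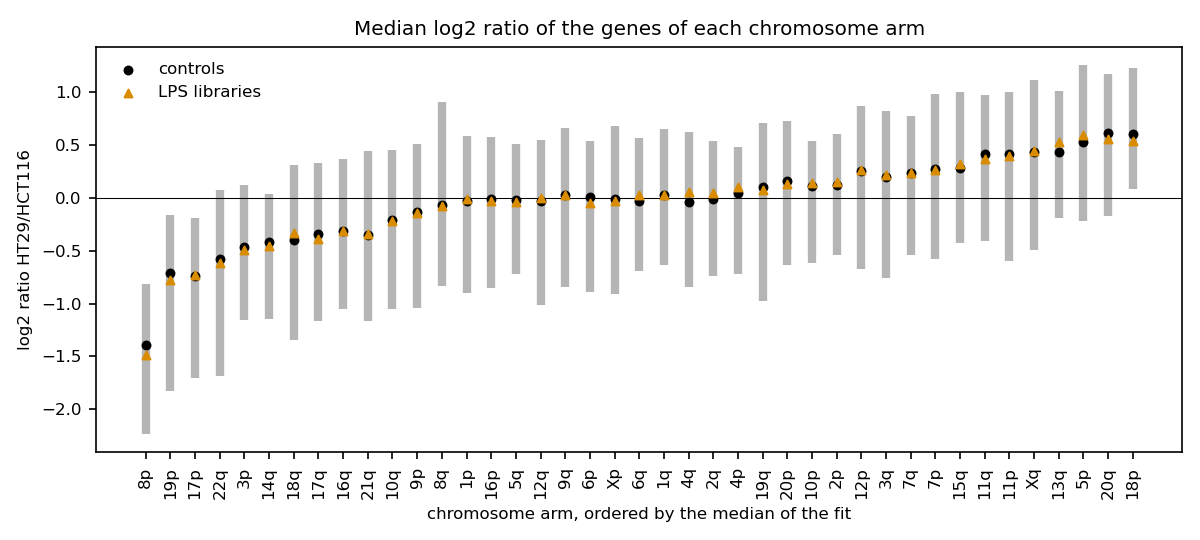
Median log2 ratio of HT29 to HCT116 (y axis) over the tested genes of each chromosome arm (x axis, ordered by the fitted median), for the control libraries (black circles) and the LPS libraries (orange triangles). Grey bars span the quartiles of the fitted log2 fold changes of the arm's genes; 8p stands lowest, at −1.40 and −1.49, and 18p and 20q stand highest.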

How the data were processed

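RNA of the 4 libraries was sequenced, and the authors deposited raw counts of reads for each gene in a shared table. According to the methods and the submitters' processing notes, reads were trimmed with cutadapt 1.9 and Trimmomatic 0.39, aligned to hg38 with HISAT2 2.1.0 and counted with featureCounts 2.0.1; no strand or multi-mapping option is named. Names and positions came from GENCODE 44. No columns were left unmapped.

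The lines were compared with edgeR 4.0.16 in R 4.3.3 (quasi-likelihood test, TMM scaling, treatment as block, 1 residual degree of freedom, common dispersion 0.00565), with Benjamini-Hochberg adjusted p under 0.05 over 14523 genes. Standard errors are the log2 fold change over the root of F. Lists contain known genes of a programme, and the members and lists were chosen with earlier results of these data known. Named genes were the 15 largest differences in each direction above an average of 5 CPM, the 10 most abundant over 2-fold, up to 6 called members per list by size of fold change, and all driver, study and colon epithelium genes. Transcripts were aligned to hg38 with minimap2 2.31, and genes with at least 50% of their length at 98% identity elsewhere were taken to have a copy. XIST, Y-linked genes and some other genes and lists that the rule names are not reported here. Counting intervals are Clopper-Pearson and, like the floors, cover counting error only. Alternatives were DESeq2 1.42.0, scaling by size factors of DESeq2 or by library totals, other filters, copies left out, no block, and each library left out.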

Additional observations from a re-analysis of the deposited data

Results flagged for a closer look

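Of the genes called over 2-fold between the lines, 3 had opposite signs in the controls and in the LPS libraries, and whether these differences differ was not tested. The log2 ratio of HT29 to HCT116 was −3.64 in the controls and 0.29 in the LPS libraries for YTHDC1 (30 and 294 counts in HT29 cells, 485 and 247 in HCT116 cells), 3.40 and −0.99 for IFI27L2 (77 and 0 against 7 and 2), and 0.26 and −2.97 for DENND11 (14 and 7 against 14 and 70). Each has a near-identical copy in the reference, and 301 of the 5785 genes called over 2-fold have one.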

How the results depend on the processing

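No paired analysis was possible because each line and treatment has 1 library, and LPS was the block instead. The 27 LPS calls became 116 with DESeq2 (7 shared), 103 without a filter, 70 at a mean of at least 5 CPM and 53 without genes that have a copy; 1071 genes had an unadjusted p under 0.05. Genes over 2-fold higher in HCT116 cells fell from 3460 to 2259 at a mean of at least 5 CPM, where fewer genes are tested. With each library left out in turn, without the LPS block and with the lone library assumed to vary like the other line's, 4909 to 4977 genes were higher in HT29 cells, 5311 to 5434 in HCT116 cells, 2300 to 2340 over 2-fold higher in HT29 cells and 3346 to 3468 over 2-fold higher in HCT116 cells. DESeq2 shared 2228 and 3243 of the over 2-fold calls, for HT29 and HCT116, respectively. Of 2968 values of the 276 named genes under tested alternatives, 2945 kept their direction and side of the threshold, 20 lost and 3 gained a call and 0 reversed. Scaling by library size alone moved the median of all genes by −0.13, and 20 of 80 list and arm medians changed sign under a scaling or filter, among them those of keratins and integrins without a filter. Depth limits genes near 1 CPM, and the design has no repeat cultures.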
